A study of Mus musculus with 16 samples.

Results

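The genes described here are 10 markers of hepatic stellate cells and of the myofibroblasts they give rise to: Pdgfra, Pdgfrb, Acta2, Tagln, Vim, Des, Lum, Dcn, Reln and Lrat. They were taken by name, and all 10 were found among the 24394 genes that carried the same usable name in both count tables of the series. The series holds mRNA-seq counts of whole mouse livers, with 4 libraries in each of 4 groups, 16 in all. The double knockout (DKO) was ARID1A f/f and ARID1B f/f with Alb-Cre+, and its controls had these floxed alleles with Alb-Cre-. The single knockout (BKO) was ARID1B f/f with Alb-Cre+, and its controls were ARID1B f/f with Alb-Cre-. All 4 groups therefore carried floxed Arid1b and both DKO experiment groups carried floxed Arid1a as well, while Alb-Cre was present only in the knockouts. No group lacked Arid1a alone, and no group carried Alb-Cre without a deletion, so the Cre transgene and the deletion cannot be told apart. The labels give no age and no treatment.

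The BAF chromatin remodelling complex contains either ARID1A or ARID1B. Alb-Cre is a recombinase driven by the albumin promoter and acts in hepatocytes, so stellate cells are not the cells in which it is meant to delete the floxed alleles. Hepatic stellate cells lie between hepatocytes and the sinusoidal endothelium and in the resting state store vitamin A as retinyl esters. On injury they are known to lose these stores, to proliferate under platelet-derived growth factor (PDGF) and to turn into contractile, matrix-secreting myofibroblasts, which are the main source of scar collagen. Portal fibroblasts and vascular smooth muscle express several of the same genes. In whole-liver RNA, fewer cells of a type and less RNA per cell cannot be told apart, and the same holds for more of either.

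A library held 8699417 to 11031443 counts in the DKO table and 21151726 to 40551934 in the BKO table. Levels are CPM, read counts relative to the library's total after TMM scaling, and changes are log2 fold changes of knockout over its own controls from edgeR's quasi-likelihood test, with the standard error (SE) and the Benjamini-Hochberg adjusted p over all genes tested. A gene is said to rise or fall where that p was under 0.05. Arid1b was lower in BKO (44.3 ± 3.98 against 84.8 ± 2.01 CPM, SD, n = 4; edgeR adjusted p = 0.00154) and in DKO (60.0 ± 13.7 against 89.3 ± 9.17; edgeR adjusted p = 0.0167). Arid1a was 108 ± 6.08 CPM in DKO and 124 ± 10.2 in its controls and did not pass the test (edgeR adjusted p = 0.149). Whole-liver counts per gene also take in undeleted cells and exons outside the floxed part. The DKO libraries DKO-7068 and DKO-7070 were the closest pair of the series, with a dispersion of 0.0145 against 0.0447 to 0.0662 for the other DKO pairs, and a chi-square of their counts still came to 7.49 times its degrees of freedom, more than sampling gives. The DKO libraries and their controls carry number tags in a lower and a higher series. The lower series is WT-7067, DKO-7068, WT-7069 and DKO-7070, and the higher series is DKO-7112, WT-7114, DKO-7137 and WT-7139. Each series has 2 knockouts and 2 controls, and what the tags stand for is not given. BKO controls F5 and F5-2 share a tag number, and their chi-square was 69.5 times its degrees of freedom. Whether these 2 libraries come from the same animal is not given.

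Promoters are shown for 3 members whose levels moved in DKO and which stand for different roles: a contractile gene, a filament gene and a vitamin A gene. Each is the 250 bases before the gene's start in RefSeq on GRCm38.p6, read 5′ to 3′ on the gene's strand, and RefSeq entries were matched for 6 of the 10 members. The RefSeq starts differ from the ends of the GENCODE genes given below, so that the Vim window lies wholly and the Acta2 window mostly inside the GENCODE gene. Capitals mark matches to the CArG box, the element bound by serum response factor in smooth muscle genes, with at most 1 C or G among its 6 middle bases. Both strands were searched, and the element reads the same on both.
Acta2, chr19:34255374-34255623, minus strand: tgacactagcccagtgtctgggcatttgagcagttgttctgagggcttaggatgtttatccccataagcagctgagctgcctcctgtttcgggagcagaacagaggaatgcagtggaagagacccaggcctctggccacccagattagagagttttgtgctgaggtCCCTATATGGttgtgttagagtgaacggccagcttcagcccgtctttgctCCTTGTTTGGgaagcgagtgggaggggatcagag
Vim, chr2:13574061-13574310, plus strand: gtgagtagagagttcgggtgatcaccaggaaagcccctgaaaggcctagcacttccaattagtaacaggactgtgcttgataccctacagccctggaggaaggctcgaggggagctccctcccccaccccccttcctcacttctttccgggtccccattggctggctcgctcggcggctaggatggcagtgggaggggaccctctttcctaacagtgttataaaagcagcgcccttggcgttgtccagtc
Lrat, chr3:82903975-82904224, minus strand: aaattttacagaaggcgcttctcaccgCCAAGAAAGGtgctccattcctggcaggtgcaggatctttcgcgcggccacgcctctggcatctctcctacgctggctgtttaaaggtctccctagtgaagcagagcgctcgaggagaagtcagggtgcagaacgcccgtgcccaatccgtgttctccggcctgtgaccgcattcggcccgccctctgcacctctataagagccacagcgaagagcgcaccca
The Acta2 promoter held 2 matches, CCCTATATGG ending 75 bases and CCTTGTTTGG ending 25 bases before the start. The Lrat promoter held 1 match, CCAAGAAAGG, ending 214 bases before the start. Such a match occurred in 8.59% of 32851 RefSeq promoters of the same length, and 0.670% held 2 or more. The promoters of Vim, Pdgfra, Des and Reln held none of these words in the same window. The Vim promoter held TATAAA ending 27 bases before the start, a word found on either strand in 12.4% of the promoters. These are matches of letters and were not tested as binding sites.

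In DKO livers, 7 of the 10 genes rose, 1 fell and 2 did not pass the test. Pdgfra, Pdgfrb, Acta2, Tagln, Vim, Des and Lum rose by 1.68 to 6.82-fold, and Lrat fell by 1.77 on the log2 scale. For Dcn and Reln the groups overlapped. Of all 12848 genes tested in that comparison, 19.2% rose and 16.6% fell, 35.8% in all. The median log2 fold change was 1.31 over the 10 genes and 0.02 over all genes tested. All 8 called genes also had groups that did not overlap, 7 higher and 1 lower, where 18.5% of all genes were higher without overlap and 16.9% lower. In BKO livers none of the 10 passed, in a comparison that called 0.583% of 14061 genes. When the total count was used in place of TMM factors, 3266 genes rose and 1269 fell in DKO, against 2467 and 2137, and the median of all genes shifted from 0.02 to 0.20. The median of the 10 genes was then 1.505, and the count of 7 higher and 1 lower stayed as it was.

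**Figure D1:**
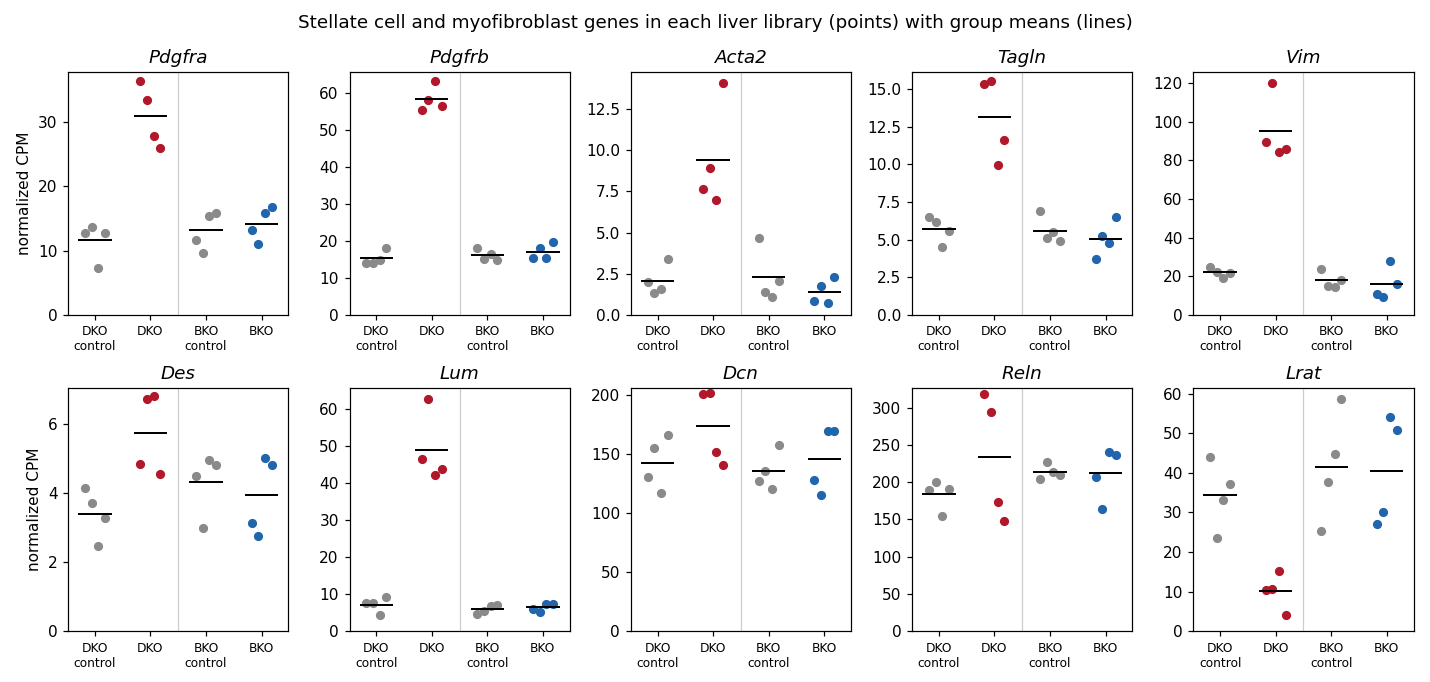
Normalized CPM (vertical axes, linear, starting at 0, 1 scale per gene) of the 10 genes in each of the 16 libraries. Points are libraries, black lines are means of 4 libraries, grey points are controls, red points DKO and blue points BKO. The red points of 7 genes lie above all points of their controls, those of Lrat lie below, and those of Dcn and Reln overlap the controls, while no blue group is separate from its controls.

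The PDGF receptors were the members of the signalling arm. Pdgfrb encodes the receptor for PDGF-B, the best known mitogen of stellate cells, and lies at chr18:61045150-61085061 on the plus strand of GRCm38. Its level was 55.4, 58.1, 63.3 and 56.5 CPM in the DKO libraries DKO-7068, DKO-7070, DKO-7112 and DKO-7137, and 14.1, 14.0, 14.9 and 18.04 CPM in the control libraries WT-7067, WT-7069, WT-7114 and WT-7139. The 4 knockout values lay within 1.14-fold of each other and the lowest was far above the highest control. Pdgfrb had the smallest SE of the 10 genes, with a log2 fold change of 1.93 (SE 0.11, edgeR adjusted p = 3.02e-06), a 3.82-fold rise.

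Pdgfra encodes the receptor that also takes PDGF-A and marks fibroblasts and resting stellate cells (chr5:75152292-75198215, plus strand). In the same library order its level was 36.4, 33.4, 27.9 and 26.0 CPM in DKO and 12.8, 13.7, 7.29 and 12.7 CPM in the controls. The groups did not overlap, and control WT-7114 stood apart below the other controls. The log2 fold change was 1.41 (SE 0.20, edgeR adjusted p = 3.91e-04). The 30 exon bases of the microRNA gene Mir7025 lie within Pdgfra, and 2 further annotated genes lie on its opposite strand.

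Other genes of PDGF signalling were called about as often as genes at large. Of 20 such genes in the table, all tested, 6 rose, 2 fell and 12 did not pass, with a median log2 fold change of 0.12. Beside these counts and those of the lists below stand the 35.8% of all genes called, 19.2% higher and 16.6% lower, and the median of 0.02 over all genes. Where a list count is from the lower tag series alone, 16.7% of all genes rose and 15.2% fell. For the higher tag series alone these shares were 6.48% and 4.11%. Named by the smallest p, Grb10, an adaptor of receptor tyrosine kinases, rose (41.1 ± 3.74 against 11.7 ± 2.88 CPM; log2 1.81, edgeR adjusted p = 3.37e-05). Pdgfb, which encodes the ligand of the beta receptor, rose from 1.38 ± 0.462 to 6.44 ± 3.12 CPM (log2 2.21, edgeR adjusted p = 0.00137). Plcg1, a phospholipase recruited by the activated receptors, fell from 67.1 ± 6.44 to 29.3 ± 5.40 CPM (log2 -1.195, edgeR adjusted p = 1.77e-04).

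The contractile members rose together. Acta2 encodes alpha smooth muscle actin, the usual marker of the myofibroblast, and lies at chr19:34241090-34255590 on the minus strand. It stood at 7.64, 8.91, 6.95 and 14.1 CPM in DKO and at 2.02, 1.34, 1.57 and 3.41 CPM in the controls, from 64 to 136 counts in a knockout library and 14 to 27 in a control. The lowest knockout value was above the highest control, and library DKO-7137 was the highest. Its log2 fold change was 2.19 (SE 0.33, edgeR adjusted p = 6.32e-04), and the 95% interval ran from 1.46 to 2.92.

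Tagln encodes transgelin, or SM22, an actin-binding protein of smooth muscle (chr9:45929619-45936058, minus strand). Its level was 15.4, 15.6, 9.99 and 11.6 CPM in DKO and 6.49, 6.21, 4.49 and 5.55 CPM in the controls. The groups did not overlap, with a log2 fold change of 1.21 (SE 0.19, edgeR adjusted p = 9.45e-04). Tagln shares 108 exon bases with Pcsk7 and 1241 with Gm48529, both on the opposite strand, and reads there cannot be told apart without strand. Gm48529 has no row in the tables. Pcsk7 itself fell from 32.4 ± 2.41 to 25.0 ± 1.82 CPM (log2 -0.37, edgeR adjusted p = 0.0165). With the higher tag series alone, 2 libraries against 2, the calls of Acta2 (log2 2.07, edgeR adjusted p = 0.0534) and Tagln (log2 1.09, edgeR adjusted p = 0.0537) were lost.

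Among 24 other genes of the contractile and actin cytoskeleton in the table, 21 were tested, of which 12 rose, 1 fell and 8 did not pass, with a median log2 fold change of 0.75. Csrp1, a LIM protein of smooth muscle, rose from 9.23 ± 0.658 to 22.7 ± 3.33 CPM (log2 1.297, edgeR adjusted p = 9.26e-05). Tagln2, a widely expressed relative of Tagln, rose from 11.1 ± 1.87 to 31.1 ± 5.10 CPM (log2 1.49, edgeR adjusted p = 9.26e-05). Tpm4, a non-muscle tropomyosin, rose from 17.0 ± 0.996 to 34.4 ± 3.76 CPM (log2 1.02, edgeR adjusted p = 9.74e-05). With the higher tag series alone 7 of the 21 rose and 0 fell.

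The members that encode intermediate filaments moved by different amounts. Vim encodes vimentin, which leukocytes and endothelium also express, and lies at chr2:13573927-13582826 on the plus strand. It stood at 89.4, 120.3, 84.6 and 85.9 CPM in DKO and at 24.6, 22.3, 19.3 and 21.7 CPM in the controls. Library DKO-7070 was the highest and the other 3 knockouts lay close together, far above every control. The log2 fold change was 2.11 (SE 0.14, edgeR adjusted p = 5.96e-06).

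Des encodes desmin, the classical rodent stellate cell filament, and lies at chr1:75360329-75368579 on the plus strand. Its level was 4.85, 6.75, 6.84 and 4.56 CPM in DKO and 4.14, 3.72, 2.47 and 3.28 CPM in the controls, from 22 to 75 counts per library. It shares 220 exon bases with Gm15179 on the opposite strand. The lowest knockout was just above the highest control, and the log2 fold change was 0.75 (SE 0.23, edgeR adjusted p = 0.0283). The call of Des was lost without control WT-7114 (log2 0.62, edgeR adjusted p = 0.0748), without control WT-7139 (0.72, 0.0603), without knockout DKO-7070 (0.65, 0.0898), without knockout DKO-7112 (0.64, 0.0766) and with DKO-7068 and DKO-7070 summed (0.73, 0.0515). It was also lost with the lower tag series alone (log2 0.54, edgeR adjusted p = 0.188) and with the higher series alone (0.98, 0.159).

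Of 15 other intermediate filament and partner genes in the table, 8 were tested, of which 5 rose, 1 fell and 2 did not pass. Their median log2 fold change was 0.92. Krt18, a keratin of hepatocytes and bile duct cells, rose from 70.7 ± 19.2 to 556 ± 33.2 CPM (log2 2.98, edgeR adjusted p = 7.17e-06). Its partner keratin Krt8 rose from 79.3 ± 18.9 to 373 ± 31.1 CPM (log2 2.23, edgeR adjusted p = 1.76e-05). Lmna, which encodes the nuclear lamins A and C, rose from 44.4 ± 3.40 to 127.9 ± 12.6 CPM (log2 1.53, edgeR adjusted p = 8.54e-06).

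The 2 small leucine-rich proteoglycans differed in how far they moved. Lum encodes lumican, a binder of collagen fibrils, and lies at chr10:97565128-97572703 on the plus strand. It stood at 46.6, 62.7, 42.1 and 43.7 CPM in DKO and at 7.61, 7.54, 4.26 and 9.21 CPM in the controls. Every knockout was far above every control. The log2 fold change of 2.77 (SE 0.22, edgeR adjusted p = 1.76e-05), a 6.82-fold rise, was the largest of the 10 genes in that fit.

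Dcn encodes decorin, a proteoglycan that binds collagen and transforming growth factor beta and is abundant in resting stellate cells and fibroblasts (chr10:97479609-97518143, plus strand, on the same chromosome as Lum). Its level was 201.0, 201.8, 152.0 and 140.8 CPM in DKO and 130.8, 155.2, 117.0 and 165.9 CPM in the controls. The groups overlapped, and the log2 fold change of 0.29 (SE 0.16, edgeR adjusted p = 0.190) had a 95% interval from -0.07 to 0.65. Within the lower tag series alone Dcn passed (log2 0.48, edgeR adjusted p = 0.0296), and within the higher series it was 0.04.

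Of 14 other small leucine-rich proteoglycan genes in the table, 7 were tested, of which 3 rose, 0 fell and 4 did not pass, with a median of 0.83. Bgn, which encodes biglycan, rose from 114 ± 14.3 to 340 ± 74.9 CPM (log2 1.58, edgeR adjusted p = 1.03e-04). Prelp rose from 81.2 ± 12.3 to 142.6 ± 16.9 CPM (log2 0.81, edgeR adjusted p = 0.00106). Fmod, which encodes fibromodulin, rose from 2.96 ± 1.2 to 18.9 ± 11.0 CPM (log2 2.67, edgeR adjusted p = 0.00738). With the lower tag series alone 6 of 8 tested rose and with the higher series alone 1 of 7, where the calls of Prelp (log2 0.56, edgeR adjusted p = 0.155) and Fmod (2.28, 0.122) were lost. Fmod also did not pass with limma voom (log2 2.46, adjusted p = 0.0622).

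Of the 2 members tied most closely to the resting cell, Lrat fell and Reln did not pass. Lrat encodes lecithin retinol acyltransferase, which makes the retinyl esters that stellate cells store, and lies at chr3:82892579-82903973 on the minus strand. It stood at 10.35, 10.7, 15.2 and 4.14 CPM in DKO and at 43.9, 23.5, 33.2 and 37.1 CPM in the controls. Every knockout was below every control, and library DKO-7137 was the lowest. The log2 fold change was -1.77 (SE 0.34, edgeR adjusted p = 0.00383), a level 3.40-fold lower, with a 95% interval from -2.54 to -0.99. With the higher tag series alone it was -1.87 and no longer passed (edgeR adjusted p = 0.130).

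Reln encodes reelin, a secreted glycoprotein that stellate cells make in the liver and that lymphatic endothelium can also make (chr5:21884454-22344702, minus strand). It shares 246 exon bases with Gm10475 on the opposite strand. Its level was 317.8, 294.8, 173.9 and 147.9 CPM in DKO and 189.9, 200.8, 153.9 and 190.3 CPM in the controls. The knockouts lay in 2 pairs that followed the tag series, the lower series above every control and the higher series within or below the controls. Over all 8 libraries Reln did not pass (log2 0.35, SE 0.24, edgeR adjusted p = 0.290). The lower series alone gave 0.63 (edgeR adjusted p = 0.00847). The higher series alone gave -0.11 (edgeR adjusted p = 0.803), so a rise was called only in the lower series. Whether the knockout effect on Reln differs between the series was not tested.

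Other genes of the resting stellate cell also went both ways. Of 26 with a row, 25 were tested, of which 7 rose, 10 fell and 8 did not pass, with a median log2 fold change of -0.37. With total counts in place of TMM factors 8 rose and 7 fell. Ecm1, an extracellular matrix protein made by hepatocytes and stellate cells, fell from 123 ± 18.1 to 30.8 ± 5.84 CPM (log2 -2.001, edgeR adjusted p = 1.59e-05). Vipr1, a receptor for vasoactive intestinal peptide, fell from 61.4 ± 8.95 to 14.9 ± 3.72 CPM (log2 -2.04, edgeR adjusted p = 2.38e-05).

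The wider retinoid pathway was likewise divided. Of 27 retinoid handling genes in the table, 21 were tested, of which 5 rose, 6 fell and 10 did not pass. The median was -0.14, and total counts gave 7 higher and 4 lower. Lpl, a lipase that releases fatty acids from lipoproteins, rose from 16.6 ± 6.21 to 296 ± 31.2 CPM (log2 4.16, edgeR adjusted p = 6.88e-06). Aldh1a1, a retinaldehyde dehydrogenase, fell from 458 ± 88.6 to 140 ± 17.4 CPM (log2 -1.71, edgeR adjusted p = 5.15e-05).

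Among 8 genes of the reelin pathway 7 were tested, of which 3 rose, 1 fell and 3 did not pass, with a median of 0.04. Vldlr, a reelin receptor, fell from 4.07 ± 1.45 to 1.09 ± 0.258 CPM (log2 -1.87, edgeR adjusted p = 0.00138). Lrp8, the other reelin receptor, rose from 0.470 ± 0.0271 to 1.42 ± 0.257 CPM (log2 1.56, edgeR adjusted p = 0.00413). Its control level was near the floor, and it passed the low-count filter through the DKO libraries. With the lower tag series alone Lrp8 did not pass (log2 1.34, edgeR adjusted p = 0.0954). Fyn, a kinase downstream of both receptors, rose from 13.5 ± 1.56 to 23.1 ± 2.20 CPM (log2 0.78, edgeR adjusted p = 0.00104). None of these genes passed with the higher tag series alone.

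Most tested genes of myofibroblast activation outside the 10 rose. Like all lists here, this one was chosen with earlier results of these data known, so its counts only describe the listed genes. Of 25 with a row, 23 were tested, of which 20 rose, 1 fell and 2 did not pass, and the median log2 fold change was 2.71 against 0.02 over all genes. Col1a1, the main fibrillar collagen chain of scars, rose from 28.2 ± 13.1 to 559 ± 109 CPM (log2 4.31, edgeR adjusted p = 1.92e-05). Thbs1, which encodes thrombospondin, an activator of latent transforming growth factor beta, rose from 1.59 ± 0.682 to 23.9 ± 5.09 CPM (log2 3.91, edgeR adjusted p = 8.35e-06). Loxl2, a collagen-crosslinking enzyme, rose from 4.31 ± 0.248 to 16.6 ± 1.25 CPM (log2 1.94, edgeR adjusted p = 7.72e-06). With the higher tag series alone 15 of 24 rose and 2 fell.

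**Figure D2:**
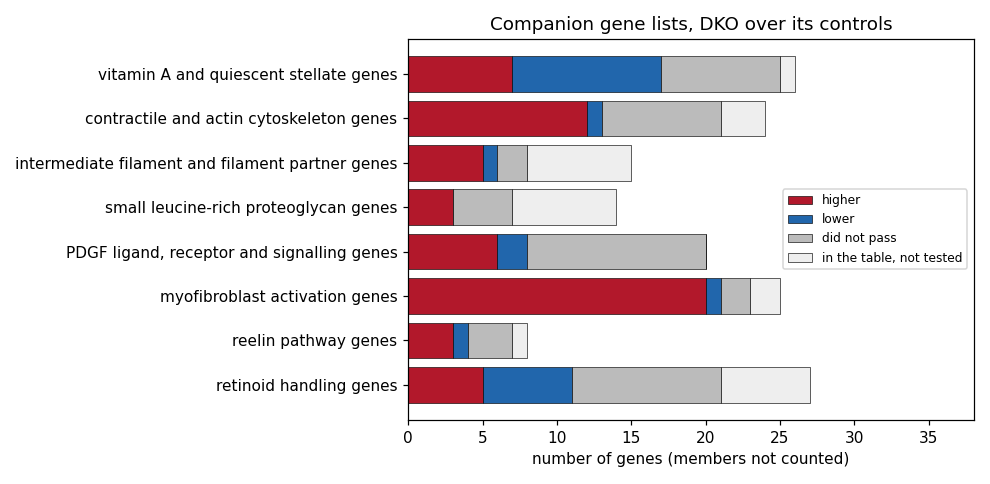
Number of genes (horizontal axis, linear from 0) in each of 8 lists that rose, fell, did not pass or were not tested in DKO over its controls, with the 10 genes of the report left out of the lists. The bar of myofibroblast activation is almost wholly red, with 20 of 23 tested genes higher, and the bar of resting stellate cell genes holds 7 higher and 10 lower.

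The 10 genes also differed from each other in abundance. Compared per kilobase of exon in the DKO controls, Dcn stood highest at 24.4 ± 3.83 CPM per kb, followed by Reln at 7.74 ± 0.863, Lrat at 6.43 ± 1.59 and Vim at 4.64 ± 0.463. Lum (2.92), Tagln (2.86) and Pdgfrb (2.79) came next, then Pdgfra (1.16), Acta2 (0.948) and Des (0.907). The ranges of neighbours in this order overlapped, except between Dcn and Reln, between Vim and Lum and between Pdgfrb and Pdgfra. In DKO the per-kb order was Dcn at 29.8 ± 5.50, Vim at 20.04 ± 3.57 and Lum at 19.9 ± 3.87, then Pdgfrb at 10.6 ± 0.636, Reln at 9.84 ± 3.59, Tagln at 6.60, Acta2 at 4.28 and Pdgfra at 3.08. Lrat, the third of the order in the controls, was the ninth in DKO at 1.89 ± 0.849 CPM per kb, and Des was the last at 1.53 ± 0.323. Neighbours in the DKO order all had overlapping ranges, except Lum and Pdgfrb. Lum moved from the fifth place to the third. Exon lengths are from GENCODE M21, and the order depends on that annotation.

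Because Pdgfrb is a receptor of resting and activated stellate cells alike, each member was also taken relative to it within a library, a measure that does not depend on scaling. In DKO the log2 ratio to Pdgfrb was lower by 3.82 for Lrat, a 14.1-fold difference, by 1.66 for Reln, by 1.65 for Dcn, by 1.18 for Des and by 0.74 for Tagln. For these 5 genes every knockout ratio was below every control ratio. The ratio of Lum was higher by 0.87, with every knockout above every control. Each of these 6 differences had p = 0.0286 in a two-sided exact permutation test, the smallest that 4 against 4 allow, and an adjusted p of 0.0857 over 18 tests, so none passed. The ratios of Pdgfra (-0.50, exact p = 0.114), Acta2 (0.27, exact p = 0.429) and Vim (0.16, exact p = 0.457) overlapped between the groups. A ratio within a library shows unequal change, not which of the genes changed.

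**Figure D3:**
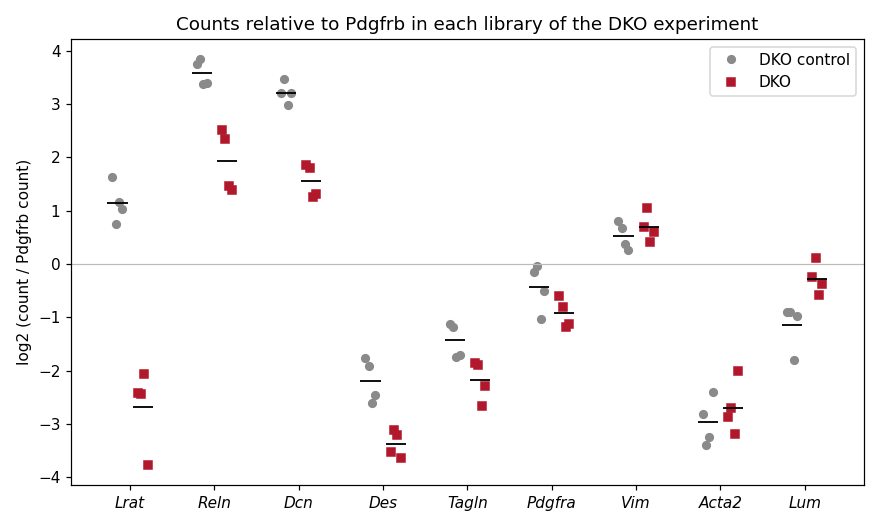
Log2 of the count of each gene over the count of Pdgfrb in the same library (vertical axis) for the 9 other genes in the DKO experiment. Grey circles are 4 control libraries, red squares 4 DKO libraries and black lines their means, and the gap between the groups is widest for Lrat, at 3.82.

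Libraries did not rank alike over the members. Among the DKO controls, WT-7114 was the lowest library for 7 of the 10 genes and the highest for 0. In DKO, DKO-7070 was the highest for 4 genes and DKO-7137 the lowest for 5. Of the 10 genes, 6 were higher in both DKO libraries of the lower tag series than in both of the higher series, namely Pdgfra, Vim, Tagln, Lum, Dcn and Reln, with the widest gap in Reln at 1.90-fold. In the controls 4 genes showed that order and 1, Pdgfrb, the opposite. Within the lower series alone 8 genes rose and 1 fell, where 16.7% of all 13310 genes tested rose and 15.2% fell. Within the higher series alone 4 rose, Pdgfra, Pdgfrb, Vim and Lum, and 0 fell, where 6.48% of all 12906 genes rose and 4.11% fell. The summed level of Acta2, Tagln and Vim was 101 to 145 CPM in DKO and 25.4 to 33.1 CPM in the controls. The summed level of the other 7 members was 424 to 672 CPM in DKO and 333 to 437 CPM in the controls, and those ranges overlapped. That sum is made up largely of Reln and Dcn, which did not pass. Their means were 234 and 174 CPM in DKO and 184 and 142 CPM in the controls.

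Markers of other cell types that share some of these genes moved as well. Of 13 portal fibroblast markers, 8 of the 10 tested rose and 0 fell, and their summed level was 123 to 275 CPM in DKO against 66.4 to 96.2 CPM in the controls. Of 10 markers of vascular smooth muscle and pericytes, 6 of the 8 tested rose and 1 fell, with sums of 115 to 153 against 68.1 to 85.8 CPM. Of 8 markers of recruited macrophages, which express Vim, 7 rose, and their sums were 85.7 to 128 against 13.1 to 17.4 CPM. In control WT-7114 3 of these 8 markers were at 0 counts, and in control WT-7139 1 was. The sums of neutrophil markers were 10.3 to 52.0 against 2.65 to 5.92 CPM (3 of 3 tested rose) and those of T cell markers 8.08 to 15.7 against 3.53 to 5.25 CPM (2 of 3 tested rose). B cell sums were 1.64 to 3.87 against 0.505 to 2.77 CPM with 0 genes tested. Of the markers with a row, only 3 of 5 for neutrophils and 3 of 7 for T cells passed the low-count filter. At such low control levels, also reached by some recruited macrophage markers, a gene can pass that filter through the DKO libraries alone.

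Sums over the 8 markers of sinusoidal and vascular endothelium were 370 to 405 CPM in DKO and 360 to 453 CPM in the controls, with 2 genes higher and 2 lower. Kupffer cell sums were 371 to 441 against 265 to 453 CPM, with 3 of 8 higher. Lymphatic endothelium markers other than Reln summed to 110 to 202 against 264 to 360 CPM, and Ccl21a was at 0 counts in all 4 groups. Of 5 tested genes of that list, Reln among them, 1 was lower, and their median log2 fold change was -0.03. The list shares Lyve1 with the sinusoidal list, so its sum is not particular to lymphatic cells. Mesothelium sums were 5.97 to 12.4 against 3.36 to 7.92 CPM. Cholangiocyte sums were 82.7 to 863 against 36.2 to 57.8 CPM, with 1 of 3 tested higher, and hepatocyte sums 77720 to 109468 against 127691 to 151651 CPM, with 4 of 8 lower and 1 higher. Alb took 3.76 to 6.38% of all counts in DKO and 8.62 to 9.94% in the controls. The part of these other cell types in the levels of the 10 genes was not tested. No marker besides Ccl21a was at 0 throughout a group.

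**Figure D4:**
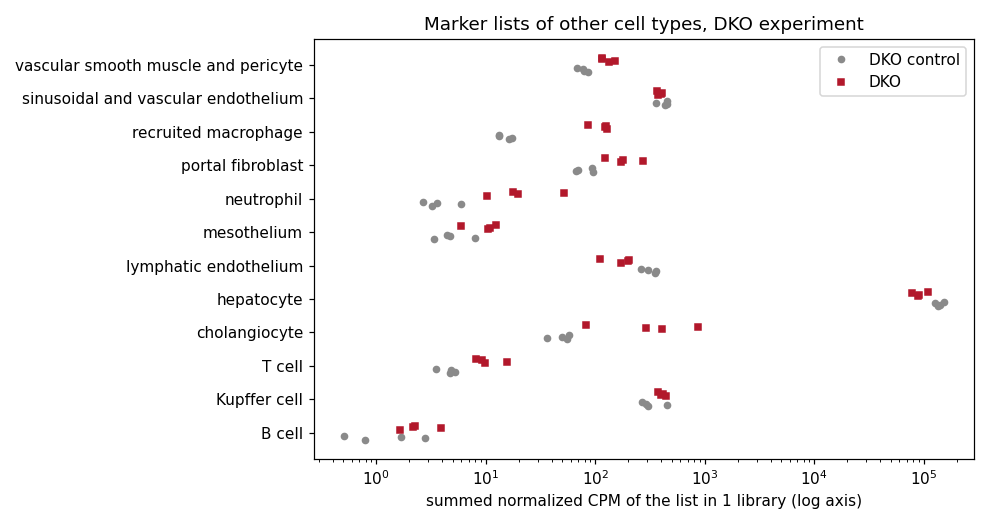
Summed normalized CPM of each marker list (horizontal axis, logarithmic) in the 4 DKO libraries (red squares) and their 4 controls (grey circles). The portal fibroblast, smooth muscle, recruited macrophage and neutrophil sums are higher in every DKO library than in every control. Sums of sinusoidal and vascular endothelium overlap. The lymphatic endothelium list, which shares Lyve1 with the sinusoidal list, sums lower in every DKO library.

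In BKO livers 0 of the 10 genes passed edgeR's test, 0 had an unadjusted p under 0.05, and DESeq2 and limma voom also called 0. Over all 14061 genes, 26 rose (0.185%), 56 fell (0.398%) and 1636 had an unadjusted p under 0.05. The median log2 fold change of the 10 genes was -0.02, and 0 genes had groups without overlap, where 3.64% of all genes were higher and 3.35% lower without overlap. Pdgfrb stood at 15.5, 17.97, 15.2 and 19.7 CPM in the BKO libraries F1, F3, F4 and F6 and at 18.02, 15.2, 16.5 and 14.9 CPM in the control libraries F2, F5-2, F5 and F7 (log2 0.08, 95% interval -0.18 to 0.34). Lrat stood at 27.0, 30.0, 54.2 and 50.9 CPM and at 25.3, 37.6, 44.8 and 58.7 CPM (log2 -0.03, 95% interval -0.78 to 0.71). The ranges of the 2 groups overlapped for both genes.

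Acta2 had the widest spread in the BKO experiment, with a coefficient of variation of 53.9% in BKO and 70.5% in its controls. Its level was 0.834, 1.77, 0.733 and 2.31 CPM in BKO and 4.64, 1.39, 1.10 and 2.04 CPM in the controls, with F2 the highest. The log2 fold change was -0.69 (SE 0.51, edgeR adjusted p = 0.668), with a 95% interval from -1.81 to 0.42, and it was -0.08 without F2. Vim stood at 10.7, 9.25, 27.7 and 16.0 CPM in BKO and at 23.7, 14.7, 14.6 and 18.3 CPM in the controls, with a log2 fold change of -0.16 (SE 0.35, edgeR adjusted p = 0.914). Its highest and its lowest level were both in BKO libraries. Library F3 was the lowest of the BKO group for 6 of the 10 genes, and F4 and F6 were each the highest for 5.

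The other 6 genes lay close to their controls in BKO. Reln was 212 ± 35.2 against 214 ± 9.82 CPM, Dcn 146 ± 28.0 against 136 ± 16.2, Pdgfra 14.2 ± 2.64 against 13.1 ± 2.95 and Lum 6.41 ± 1.07 against 5.88 ± 1.15 CPM. Tagln was 5.04 ± 1.18 against 5.60 ± 0.887 and Des 3.94 ± 1.16 against 4.32 ± 0.912 CPM. Their log2 fold changes ran from -0.15 for Tagln to 0.13 for Lum. The 95% intervals were -0.29 to 0.55 for Lum, -0.28 to 0.51 for Pdgfra, -0.27 to 0.24 for Reln, -0.20 to 0.40 for Dcn, -0.59 to 0.29 for Tagln and -0.67 to 0.41 for Des. All 9 ratios to Pdgfrb overlapped between BKO and its controls, the smallest exact permutation p being 0.0571 for Tagln (adjusted 0.147).

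The companion lists gave 1 call in BKO. Aldh1a1 fell from 320 ± 90.9 to 147 ± 28.3 CPM (log2 -1.12, edgeR adjusted p = 0.0415), and the call was lost with no filter on low counts, without F2, F5 or F7 and without each BKO library in turn. Of 23 tested genes of myofibroblast activation 0 passed in edgeR, DESeq2 or limma voom, and their smallest unadjusted p in edgeR was 0.150, for Crip1. Their median was -0.03. In the contractile list Tpm2, a muscle tropomyosin, had the smallest p at 1.19 ± 0.342 against 3.28 ± 1.13 CPM (log2 -1.48, edgeR adjusted p = 0.0694), and it passed with DESeq2, with total counts and with no filter. In the reelin list Vldlr was 1.04 ± 0.211 CPM against 22.6 ± 25.0 CPM in controls that differed widely among themselves (edgeR adjusted p = 0.104), and 1 gene of that list passed with F5 and F5-2 summed or without F5-2.

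The difference between the knockout effects was tested over all 16 libraries, as the DKO effect minus the BKO effect. For 6 of the 10 genes the effect was higher in DKO and for 1, Lrat, lower, and 3 did not pass, where 11.0% of 14050 genes were higher and 11.5% lower (22.5% in all). The difference in log2 was 2.85 for Acta2 (SE 0.67, edgeR adjusted p = 0.00591), 2.61 for Lum (0.29, 1.22e-05), 2.24 for Vim (0.39, 9.25e-04) and 1.82 for Pdgfrb (0.16, 9.27e-07). It was 1.32 for Tagln (0.28, 0.00274), 1.27 for Pdgfra (0.28, 0.00381) and -1.76 for Lrat (0.50, 0.0203). Des (0.85, 95% interval 0.11 to 1.59, edgeR adjusted p = 0.0913), Reln (0.33, -0.26 to 0.92, 0.432) and Dcn (0.16, -0.31 to 0.63, 0.668) did not pass. With total counts in place of TMM factors the Lrat difference was -1.48 (edgeR adjusted p = 0.0547) and no longer passed, and the Des difference was 1.12 (0.0332) and did; the latter was also called without F5-2 (1.00, 0.0452). The knockouts differ in the number of deleted genes and also in experiment and depth, and these cannot be told apart.

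**Figure D5:**
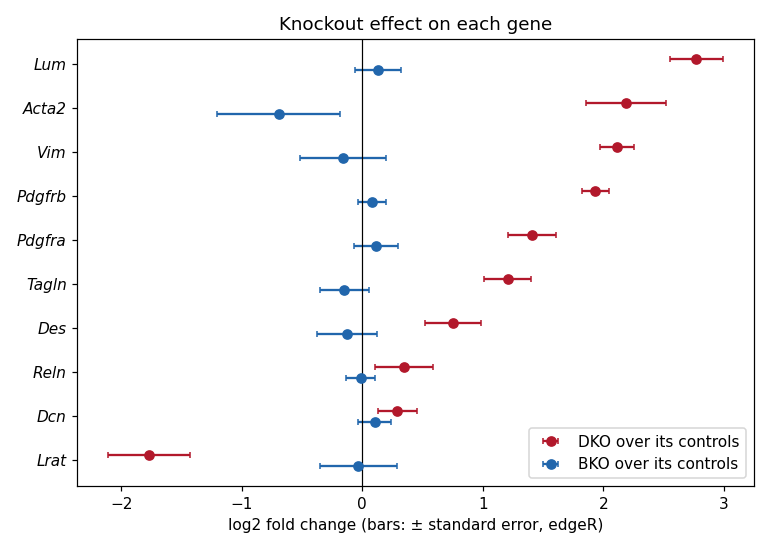
Log2 fold change of each gene over its own controls (horizontal axis) in DKO (red) and BKO (blue), with bars of ± 1 standard error from edgeR and 4 libraries per group. The DKO points run from 2.77 for Lum to -1.77 for Lrat, and the BKO points lie between -0.69 for Acta2 and 0.13 for Lum.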

How the data were processed

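Total liver RNA was purified with TRIzol and RNeasy columns before NuGEN Ovation library preparation, per the labels' protocols. The authors deposited whole-number read counts per gene, not normalized, in 1 table of 24421 rows per experiment. Per the submitters' processing notes, the tools were Trim Galore 0.4.1 and HISAT2 2.1.0, then featureCounts 1.6.2, and the notes list GRCm38, mm10 and GRCh38 without a role. No source used here gives the strand setting or the annotation.

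The genotype label set each library's group, and libraries carry their tags as names. Each library was counted as 1 replicate. That the libraries come from different animals is taken from the tags alone, which leave this unknown for F5 and F5-2. The p-values measure the spread between these libraries. In the BKO table, 27 gene names had turned into dates and stayed out of the joint fit. The test was edgeR 4.0.16 in R 4.3.3 (filterByExpr, TMM, robust quasi-likelihood), with SE taken as the log2 fold change over the square root of F. DKO and BKO levels were not compared directly. Counts limit the precision as the 95% intervals show. The steps were tested on simulated counts, in which 67 genes changed by 1.5-fold, 67 by 2-fold and 66 by 4-fold in each comparison. In DKO 14.9% of 1.5-fold, 50.7% of 2-fold and 92.4% of 4-fold changes were recovered, and 6.25% of calls were false. In BKO these were 29.9%, 79.1%, 95.5% and 8.72%. For the difference they were 4.48%, 41.8%, 90.9% and 4.21%. Many small changes did not pass in these simulations. The real fits called 4604 genes in DKO and 3162 for the difference, far more than were changed in the simulations. The adjustment for many genes was therefore less strict in those real fits, and the simulated rates do not carry over to them. DESeq2 1.42.0, limma 3.58.1 with voom, other scalings and filters, a term for the tag series, summed libraries and leaving out each library were alternatives. The 10 genes and all lists were chosen with earlier results of these data known. Named list genes are the 3 with the smallest p among those called in DKO and up to 2 called in BKO, or 1 where a list had no call; Crip1 follows from that rule. A listed gene that the rule names is not reported here. The fits of each tag series alone and the ratios to Pdgfrb (exact tests in scipy 1.17.1) were added after the data had been seen. Coordinates and exon lengths are from GENCODE M21 on GRCm38, where 5 of the 10 genes overlap a gene on the opposite strand.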

Additional observations from a re-analysis of the deposited data

Results flagged for a closer look

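Pdgfra in control library WT-7114 (7.29 CPM) stood apart below the other 3 controls, with a gap of 0.845 of the group's range. Vim in DKO library DKO-7070 (120.3 CPM) stood apart above the other 3 knockouts, with a gap of 0.863 of the range. These were 2 of 40 groups of 4 libraries looked at, and chance marks about 1 in 20. Pdgfra remained called without WT-7114 and Vim without DKO-7070.

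The knockout effects differed between the experiments for 7 of the 10 genes, as DKO effect minus BKO effect on the log2 scale. Of all 14050 genes tested in that comparison, 22.5% were called. The knockouts also differ in experiment and depth, which cannot be told apart from the number of deleted genes. The differences were 1.27 for Pdgfra, 1.82 for Pdgfrb, 2.85 for Acta2, 2.24 for Vim, 1.32 for Tagln, 2.61 for Lum and -1.76 for Lrat, each past an edgeR adjusted p of 0.05 in the joint fit of 16 libraries.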

How the results depend on the processing

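In DKO the calls of Pdgfra, Pdgfrb, Vim and Lum held in all 19 alternatives and those of Acta2, Tagln and Lrat in 18. The exception was the higher tag series alone, where 4 genes were called higher and 0 lower. Reln was -0.11 there and did not pass (edgeR adjusted p = 0.803). Des kept its call in 12 of 19. In BKO 0 of the 10 genes were called in any of 16 alternatives, but small effects changed sign: Reln was 0.00848 with F5 and F5-2 summed, and with 1 library left out it ran from -0.0829 to 0.0908, Vim from -0.57 to 0.0325, Lrat from -0.21 to 0.18, Des from -0.27 to 0.0156 and Pdgfra from -0.00855 to 0.22. For the difference, total counts left 0 of the 10 genes called lower. The cause was not tested. Over all genes in BKO, 153 rose and 203 fell with DESeq2, against 26 and 56, and 22 and 86 with total counts. With 1 BKO library left out the counts went as low as 4 and 13 (F1), with 9 and 20 without F6, 10 and 30 without F3, 6 and 25 without F2 and 17 and 34 without F7. In DKO 836 rose and 531 fell with the higher tag series alone. For the difference, total counts gave 2627 higher and 744 lower and a median of 0.27 over all genes, against 1552 and 1610. No paired analysis was possible because the groups share no replicate numbers. Depth limits Acta2 and Des, which had 14 to 136 counts in DKO experiment libraries.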
